A study of Mus musculus with 23 samples.

Results

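FoxO1 and FoxO3 are forkhead transcription factors, and atrogin-1, encoded by Fbxo32, is a muscle ubiquitin ligase subunit whose gene they are known to switch on. The mouse array of this study carried 9 probe sets whose single gene symbol was Foxo1 (4 probe sets), Foxo3 (3) or Fbxo32 (2), of 22626 probe sets in all, so that 3 of the 12393 genes named by a single symbol are described here, through every probe set they have. Of the 9, 8 passed the filter on low values that was used for testing. In gastrocnemius, 3 Foxo1 probe sets, 2 Foxo3 probe sets and 1 Fbxo32 probe set were higher after spaceflight than in ground controls, by 1.37-fold to 2.59-fold. After hindlimb suspension 0 of the 8 passed the test. After suspension and reloading 1 Foxo1 probe set was higher than in untreated calf muscle. That call was narrow and was kept in 3 of the 15 fits that left out 1 calf array. Of all tested probe sets, 6.36% were called for flight, 0.377% for suspension and 0.337% for reloaded against untreated calf muscle.

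The study hybridised muscle RNA to 23 Affymetrix arrays in 5 groups and asked how spaceflight and unloading on the ground change muscle gene expression. All mice were C57BL/6J females, labelled as 77 days of age, and the labels name no transgene and no drug. The flight experiment used gastrocnemius from 4 mice flown for 11 days and 19 h (labelled spaceflight) and from 4 mice kept on the ground in the same kind of animal enclosure module for the same time (labelled AEM). The ground experiment used calf muscle from 5 untreated mice in normal housing (control), 5 mice suspended by the tail for 12 days (suspension) and 5 mice suspended for 12 days and then let down for 3.5 h (reloaded). The free-text descriptions of the AEM and spaceflight samples are exchanged relative to their titles and source names, which were followed here; if the descriptions are the correct ones, the flight differences below have the opposite sign. Suspended mice keep their forelimbs loaded and their housing differs from that of the controls, and both experiments took whole muscle, so that all of its cell types contribute RNA. The labels number the samples but give no animal numbers, so the spread behind the p-values may be partly technical.

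In muscle, insulin and IGF-1 signalling through phosphatidylinositol 3-kinase and Akt phosphorylates FoxO proteins, which then bind 14-3-3 proteins and stay in the cytoplasm. When this signal is low, FoxO proteins enter the nucleus and raise the transcription of genes for protein breakdown, autophagy, growth arrest and fuel switching. Atrogin-1 is the F-box subunit that brings substrates to an SCF ubiquitin ligase, and its RNA is widely used as a marker of muscle atrophy. The arrays measured RNA levels and not the phosphorylation or the location of FoxO proteins.

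The promoters of the genes for both factors are shown because their RNAs were higher in the same comparison. Each line gives the 250 bases before the start of the gene in the RefSeq mouse annotation, read 5′ to 3′ on the strand of the gene, with capitals marking CCAAT boxes (CCAAT or ATTGG) and GC boxes (GGGCGG or CCGCCC). The Foxo1 window is chr3:52268087-52268336 on the plus strand and the Foxo3 window is chr10:42276696-42276945 on the minus strand, both in GRCm38.p6.
Foxo1: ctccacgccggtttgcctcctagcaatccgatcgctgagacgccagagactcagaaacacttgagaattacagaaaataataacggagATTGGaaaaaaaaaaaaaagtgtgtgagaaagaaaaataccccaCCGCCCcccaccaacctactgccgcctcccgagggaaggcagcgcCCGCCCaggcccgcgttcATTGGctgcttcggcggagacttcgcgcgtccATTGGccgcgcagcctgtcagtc
Foxo3: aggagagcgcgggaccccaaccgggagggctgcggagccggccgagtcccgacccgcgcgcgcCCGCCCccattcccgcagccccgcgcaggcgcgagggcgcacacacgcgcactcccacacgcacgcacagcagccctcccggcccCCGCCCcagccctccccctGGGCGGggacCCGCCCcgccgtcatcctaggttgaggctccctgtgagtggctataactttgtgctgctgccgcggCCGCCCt
The promoter table held 2 of the 3 genes, the third being Fbxo32. The Foxo1 window held 3 CCAAT boxes and 2 GC boxes, with a GC content of 56% and 20 CpG dinucleotides. The Foxo3 window held 0 CCAAT boxes and 5 GC boxes, with a GC content of 76.4% and 31 CpG dinucleotides. Over 32851 promoter windows of the same length, 33.9% held a CCAAT box and 32.7% held a GC box, the median GC content was 52.4% and the median CpG number was 6. The other motifs searched on both strands were the FoxO core GTAAACA, held by 3.17% of all windows, the glucocorticoid half-site AGAACA, held by 16.1%, and the cAMP response element TGACGTCA, held by 1.55%. None of these 3 motifs was present in the Foxo1 or the Foxo3 window, which says only that those letters do not occur in these 250 bases.

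The values are log2 signals as deposited, 1 per probe set and array, and ran from 2.49 to 14.2 over the whole table. Array medians were 6.15 to 6.23 in the flight experiment and 6.28 to 6.39 in the calf experiment, and the range between the 75th and 25th percentiles was 2.75 to 2.91 and 2.20 to 2.46, so levels are compared within an experiment only. Tests covered the 14849 probe sets that were at or above 5.83, the 40th percentile of all values, on 4 or more arrays. Arrays of one group correlated at 0.992 or more in the flight experiment and at 0.981 or more in the calf experiment, where suspension replicate 8 stood lowest with a median correlation of 0.985 to its group, and 0 pairs of arrays were duplicates. The 8 muscle fibre markers (such as Ckm, Acta1 and Myh4) were high everywhere, with a mean log2 signal of 13.5 to 13.6 in every group.

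Foxo1 was the member with the largest difference after spaceflight. Its first probe set, 1416981_at, read 8.04, 8.83, 8.03 and 8.23 (log2 signal) in AEM replicates 1 to 4. In spaceflight replicates 8 to 11 it read 9.67, 9.92, 9.41 and 9.61. All 4 spaceflight arrays were above all 4 AEM arrays, and AEM replicate 2 stood above the other AEM arrays. The group means were 9.65 ± 0.21 and 8.28 ± 0.38 (SD, n = 4 each), and the difference was 1.37 ± 0.16 (log2 ± SE; 95% confidence interval 1.01 to 1.73), a 2.59-fold higher level (limma, adjusted p = 0.000543). Of the 14849 probe sets tested, 23 had a larger increase.

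The same pattern was read by 2 further Foxo1 probe sets, which carry the same accession as the first in the platform table and so interrogate one transcript record. Probe set 1416982_at read 7.97, 8.59, 8.05 and 8.04 in AEM replicates 1 to 4 and 9.35, 9.80, 9.35 and 9.19 in spaceflight replicates 8 to 11. Probe set 1416983_s_at, whose suffix marks probes that can match more than 1 transcript, read 8.18, 8.71, 7.82 and 7.69 in the AEM arrays and 9.25, 9.65, 9.22 and 8.84 in the spaceflight arrays. In neither did the groups overlap, and AEM replicate 2 and spaceflight replicate 9 were again the highest of their groups. The differences were 1.26 ± 0.15 (2.40-fold; limma, adjusted p = 0.000537) and 1.14 ± 0.21 (2.20-fold; limma, adjusted p = 0.00585). Without AEM replicate 2 the 3 differences were 1.55, 1.40 and 1.34.

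The fourth Foxo1 probe set, 1456529_at, comes from another accession and read near the level of the filter, which it reached on 19 of the 23 arrays. It read 5.72, 5.76, 5.87 and 5.85 in the AEM arrays and 5.86, 5.66, 5.85 and 5.82 in the spaceflight arrays, and the groups overlapped over nearly their whole range. Its difference was -0.00 ± 0.08 (95% confidence interval -0.17 to 0.17; limma, adjusted p = 0.992). The mean of all 4 Foxo1 probe sets, which includes this one, was 0.94 higher after flight (limma, adjusted p = 0.00101).

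**Figure D1:**
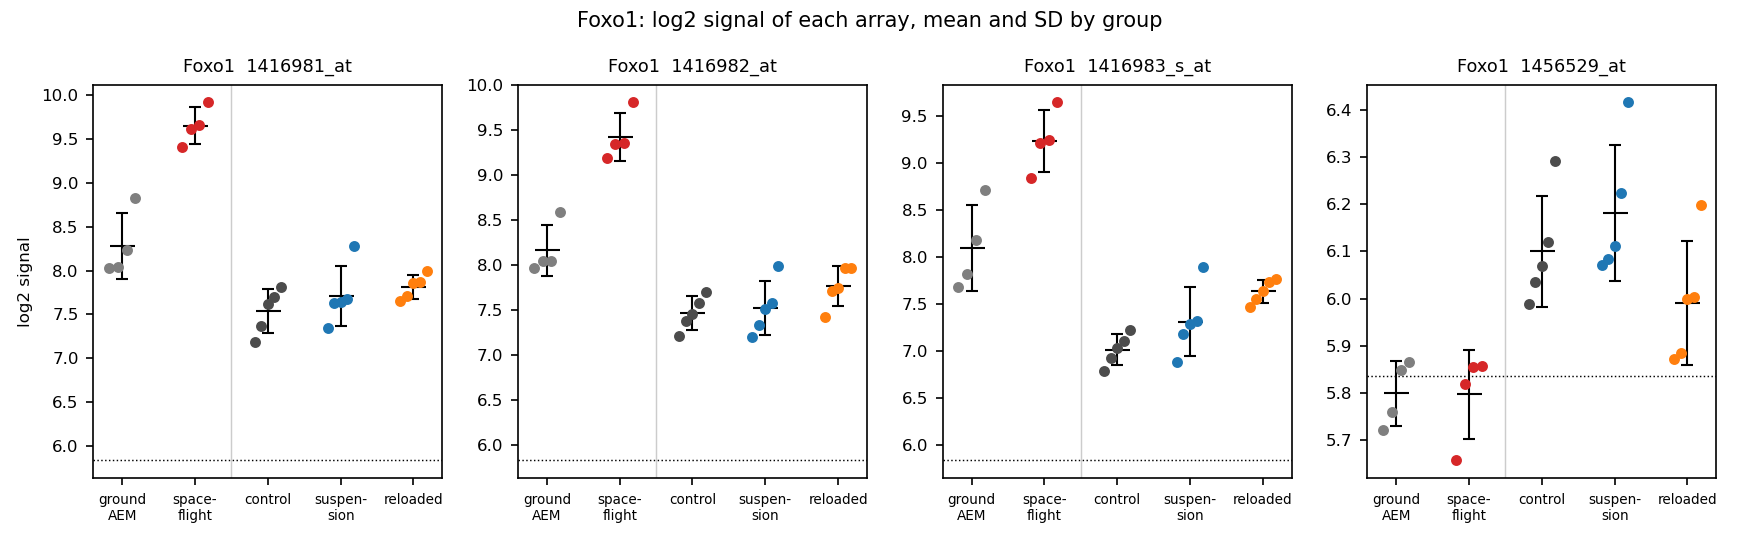
Log2 signal (vertical axis) of the 4 Foxo1 probe sets on each of the 23 arrays, by group (horizontal axis). Points are arrays, bars are the group mean ± SD and the dotted line is the filter level of 5.83. In 3 probe sets the 4 spaceflight arrays lie above all AEM arrays, while 1456529_at lies near the dotted line in every group.

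In calf muscle 1 of the Foxo1 probe sets, 1416983_s_at, passed a test between groups. Probe set 1416981_at read 7.62, 7.81, 7.70, 7.37 and 7.19 in control replicates 1, 2, 19, 21 and 22. In suspension replicates 8, 9, 11, 25 and 30 it read 7.68, 7.63, 7.35, 8.28 and 7.64. In reloaded replicates 14, 15, 16, 18 and 33 it read 7.99, 7.85, 7.65, 7.87 and 7.72. The 3 groups overlapped, and suspension replicate 25 was the highest of all 15 arrays. The suspension difference was 0.18 ± 0.14 (95% confidence interval -0.12 to 0.47; limma, adjusted p = 0.771), the reloading difference, reloaded minus suspension, was 0.10 ± 0.14 (adjusted p = 0.820) and reloaded minus control was 0.28 ± 0.14 (adjusted p = 0.716). Without suspension replicate 25 the suspension difference was 0.03.

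Probe set 1416982_at read 7.58, 7.70, 7.46, 7.22 and 7.38 in the control arrays, 7.58, 7.52, 7.20, 7.99 and 7.33 in the suspension arrays and 7.96, 7.75, 7.71, 7.97 and 7.43 in the reloaded arrays. The groups overlapped, with reloaded replicate 33 inside the range of the controls and the other reloaded arrays above it. Its differences were 0.06 ± 0.13 for suspension, 0.24 ± 0.13 for reloading and 0.30 ± 0.13 for reloaded minus control (limma, adjusted p = 0.934, 0.586 and 0.666).

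Probe set 1416983_s_at read 7.04, 7.22, 6.92, 6.79 and 7.10 in the control arrays and 6.89, 7.28, 7.18, 7.89 and 7.32 in the suspension arrays. In the reloaded arrays it read 7.73, 7.64, 7.56, 7.77 and 7.47, all 5 above all 5 controls. Reloaded minus control was 0.62 ± 0.13 (95% confidence interval 0.34 to 0.90), a 1.54-fold higher level (limma, adjusted p = 0.0461). The call was narrow: it was kept in 3 of the 15 fits that left out 1 calf array, where the difference ran from 0.56 to 0.67 and the adjusted p from 0.00337 to 0.157. It was also lost with no filter on low values (adjusted p = 0.0559), after quantile normalization (0.0553) and after centring each array on its median (0.0543). The suspension difference of the same probe set was 0.30 ± 0.13 (adjusted p = 0.542) and its reloading difference was 0.32 ± 0.13 (adjusted p = 0.478). Without suspension replicate 25 the reloading difference was 0.47 and passed (limma, adjusted p = 0.0396).

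Probe set 1456529_at lay close to the filter in calf muscle as well. It ran from 5.99 to 6.29 in the control arrays, from 6.07 to 6.42 in the suspension arrays and from 5.87 to 6.20 in the reloaded arrays. Its differences were 0.08 for suspension, -0.19 for reloading and -0.11 for reloaded minus control, none of which passed (limma, adjusted p = 0.830, 0.506 and 0.877).

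In order of mean level within each experiment, Foxo1 (1416981_at) stood at AEM and then spaceflight in gastrocnemius, and at control, suspension and reloaded in calf muscle. The calf neighbours in that order did not differ beyond their spread, at 7.54 ± 0.25, 7.71 ± 0.34 and 7.82 ± 0.13 (SD, n = 5 each).

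Foxo3, the second forkhead factor, was also higher after spaceflight, by a smaller amount. Probe set 1434831_a_at, whose suffix marks probes shared by transcripts of one gene, read 8.20, 8.33, 8.09 and 7.98 in AEM replicates 1 to 4 and 8.70, 8.80, 8.75 and 8.53 in spaceflight replicates 8 to 11. The groups did not overlap. The means were 8.70 ± 0.12 and 8.15 ± 0.15 (SD, n = 4 each), and the difference was 0.55 ± 0.09 (95% confidence interval 0.34 to 0.75), a 1.46-fold higher level (limma, adjusted p = 0.00424). Of all probe sets tested, 228 had a larger increase.

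Probe set 1434832_at has the same accession in the platform table. It read 7.31, 7.38, 7.32 and 7.34 in the AEM arrays, which were close together, and 7.70, 8.10, 7.83 and 7.54 in the spaceflight arrays, all higher and more spread. The difference was 0.46 ± 0.11 (1.37-fold; limma, adjusted p = 0.0245). This call was lost without AEM replicate 1, 3 or 4 or spaceflight replicate 9 or 10, with differences of 0.35 to 0.54 and an adjusted p of up to 0.0663 over the 8 such fits, and with the array range as a covariate (0.39, adjusted p = 0.0913). The third probe set, 1450236_at, has another accession and was below the filter on all 23 arrays. It read 4.30 to 4.56 in the AEM arrays and 4.39 to 4.49 in the spaceflight arrays, a difference of 0.00. The mean of the 3 Foxo3 probe sets, which includes it, was 0.34 higher after flight (limma, adjusted p = 0.0236).

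In calf muscle the Foxo3 values were tightly grouped and overlapped. Probe set 1434831_a_at read 7.71, 7.72, 7.67, 7.62 and 7.68 in the control arrays, 7.65, 7.85, 7.64, 7.83 and 7.72 in the suspension arrays and 7.74, 7.72, 7.67, 7.99 and 7.87 in the reloaded arrays. The means were 7.68 ± 0.04, 7.74 ± 0.10 and 7.80 ± 0.13 (SD, n = 5 each), and neighbours in this order did not differ beyond their spread. The suspension difference was 0.05 ± 0.07 (95% confidence interval -0.10 to 0.21; limma, adjusted p = 0.873), so the interval allowed at most 0.21 where flight gave 0.55. Reloading gave 0.06 and reloaded minus control gave 0.12 (adjusted p = 0.800 and 0.815).

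Probe set 1434832_at read 6.86 to 7.21 in the control arrays, 6.78 to 7.16 in the suspension arrays and 6.82 to 7.26 in the reloaded arrays, with no separation of the groups. Its differences were 0.07 ± 0.10 for suspension, -0.03 for reloading and 0.03 for reloaded minus control (limma, adjusted p = 0.891, 0.924 and 0.992). Probe set 1450236_at, below the filter, ran from 4.84 to 5.12 in the control arrays, from 4.86 to 5.53 in the suspension arrays and from 4.83 to 5.08 in the reloaded arrays.

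**Figure D2:**
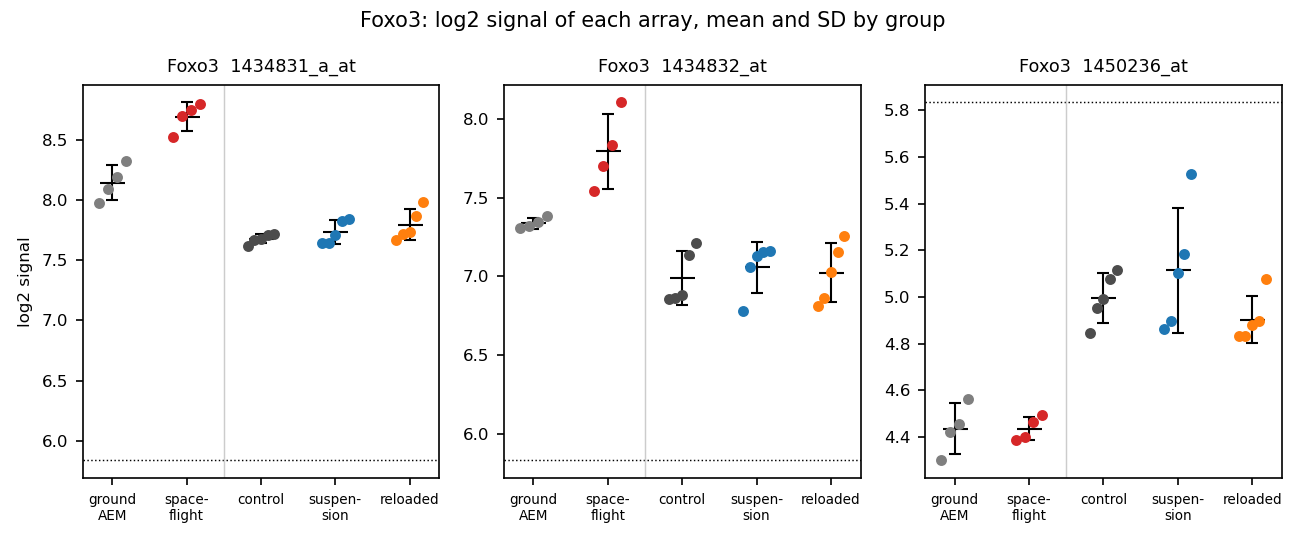
Log2 signal (vertical axis) of the 3 Foxo3 probe sets on each array, by group (horizontal axis). Points are arrays, bars are the group mean ± SD and the dotted line is the filter level of 5.83. The spaceflight arrays lie above the AEM arrays in 1434831_a_at and 1434832_at, and 1450236_at lies under the dotted line on all 23 arrays.

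Fbxo32, the atrogin-1 gene and a target of both factors, gave a divided reading after spaceflight. Probe set 1417522_at read 10.14, 10.41, 10.65 and 10.45 in AEM replicates 1 to 4 and 10.93, 11.02, 11.31 and 11.26 in spaceflight replicates 8 to 11. The groups did not overlap. The means were 11.13 ± 0.18 and 10.41 ± 0.21 (SD, n = 4 each), and the difference was 0.72 ± 0.12 (95% confidence interval 0.46 to 0.97), a 1.65-fold higher level (limma, adjusted p = 0.00324). Of all probe sets tested, 131 had a larger increase.

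Probe set 1448747_at carries the same accession in the platform table but read 11.00, 11.51, 11.44 and 11.18 in the AEM arrays and 11.45, 11.29, 11.50 and 11.69 in the spaceflight arrays. The groups overlapped, since AEM replicate 2 stood above 3 of the 4 spaceflight arrays. The difference was 0.20 ± 0.12 (95% confidence interval -0.06 to 0.46; limma, adjusted p = 0.380). Averaged over both probe sets, Fbxo32 was 0.46 higher after flight (limma, adjusted p = 0.0282).

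The gap between the Fbxo32 probe sets was tested on each array. Signal of 1417522_at minus signal of 1448747_at ran from -1.10 to -0.74 in the AEM arrays and from -0.52 to -0.19 in the spaceflight arrays, without overlap. The flight differences of the probe sets thus differed by 0.52 (exact two-sided permutation test, p = 0.0286, the smallest that 4 against 4 arrays allow; adjusted p = 0.114 over 40 tests of probe set pairs). Within groups the probe sets moved together, with a correlation of 0.81 over the 23 arrays after removal of the group means, which share array and normalization.

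In calf muscle neither Fbxo32 probe set passed the test. Probe set 1417522_at read 9.68, 9.69, 9.74, 9.74 and 9.20 in control replicates 1, 2, 19, 21 and 22. It read 9.74, 9.33, 9.51, 10.28 and 9.25 in suspension replicates 8, 9, 11, 25 and 30 and 8.86, 9.11, 9.37, 9.77 and 8.30 in reloaded replicates 14, 15, 16, 18 and 33. Control replicate 22 was low, suspension replicate 25 high and reloaded replicate 33 lowest of all. The suspension difference was 0.01 ± 0.22 (95% confidence interval -0.44 to 0.46; limma, adjusted p = 0.995). Reloading gave -0.54 ± 0.22 (95% confidence interval -0.99 to -0.09; adjusted p = 0.467) and reloaded minus control gave -0.53 ± 0.22 (-0.98 to -0.08; adjusted p = 0.602). Without reloaded replicate 33 these last values were -0.35 and -0.34.

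Probe set 1448747_at read 10.45, 10.74, 10.16, 10.09 and 9.96 in the control arrays, 10.37, 10.33, 10.10, 10.56 and 9.93 in the suspension arrays and 10.04, 9.95, 10.60, 10.60 and 8.80 in the reloaded arrays. The groups overlapped, and reloaded replicate 33 was again the lowest array. Its differences were -0.02 ± 0.25 for suspension, -0.26 ± 0.25 for reloading and -0.28 ± 0.25 for reloaded minus control (limma, adjusted p = 0.991, 0.748 and 0.909), and the last 2 were 0.04 and 0.02 without reloaded replicate 33. In order of mean level, Fbxo32 (1417522_at) stood at 9.08 ± 0.55 in reloaded, 9.61 ± 0.23 in control and 9.62 ± 0.41 in suspension (SD, n = 5 each), and the neighbours did not differ beyond their spread.

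**Figure D3:**
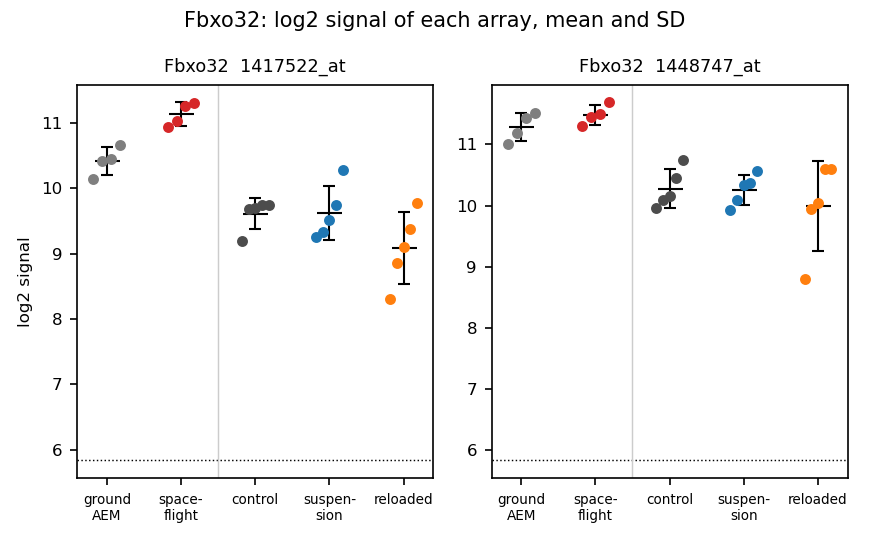
Log2 signal (vertical axis) of both Fbxo32 probe sets on each array, by group (horizontal axis). Points are arrays, bars are the group mean ± SD and the dotted line is the filter level of 5.83. The spaceflight arrays lie above the AEM arrays in 1417522_at and overlap them in 1448747_at, and reloaded replicate 33 is the lowest point of both.

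Counted over the 3 genes, 6 of the 8 tested probe sets were higher after spaceflight and 0 lower, beside 6.36% of all tested probe sets called in either direction and 3.25% called higher. In the same 6 the groups did not overlap, beside 12.9% of all tested probe sets in either direction. Probe sets of one gene read the same RNA and are not independent of each other. The 3 genes were chosen with earlier results of these data known, so the shares beside their counts describe and do not test. For suspension limma called 0 of 8 (1 at an unadjusted p under 0.05, 1416983_s_at), beside 0.377% of all tested probe sets. For reloading it called 0 of 8 (3 at an unadjusted p under 0.05), beside 0.579%, and for reloaded minus control 1 of 8, beside 0.337%; that probe set was also the only 1 of the 8 without overlap, beside 2.48%. The suspension, reloading and reloaded-minus-control comparisons share arrays.

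The flight difference was set directly against the calf differences in a fit of all 23 arrays. It exceeded the suspension difference by 1.19 ± 0.23 for Foxo1 1416981_at and by 1.20 ± 0.21 for 1416982_at (limma, adjusted p = 0.00434 and 0.00186). It exceeded it by 0.49 ± 0.11 for Foxo3 1434831_a_at (adjusted p = 0.0210), a call that was lost without AEM replicate 3 or 4 or spaceflight replicate 9 and for the mean of the Foxo3 probe sets (0.26, adjusted p = 0.180). These were 3 of the 8 tested probe sets, beside 1.58% of all. Foxo1 1416983_s_at, at 0.84 ± 0.25, did not pass (adjusted p = 0.0928), and passed without suspension replicate 25 (0.99, adjusted p = 0.0210), AEM replicate 2 (1.05, adjusted p = 0.0113) or spaceflight replicate 11 (0.97, adjusted p = 0.0487). For Fbxo32 1417522_at the flight difference was 0.71 ± 0.29 larger than the suspension difference (95% confidence interval 0.10 to 1.31; adjusted p = 0.288) and for 1448747_at 0.22 ± 0.33 larger (adjusted p = 0.835), so a different response of Fbxo32 to flight and to suspension was not shown. Foxo3 1434832_at gave 0.39 ± 0.15 (adjusted p = 0.258).

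Against reloaded minus control, the flight difference of Fbxo32 1417522_at was larger by 1.25 ± 0.29 (95% confidence interval 0.64 to 1.86; limma, adjusted p = 0.0158), with flight at 0.72 and reloaded minus control at -0.53. The 3 other probe sets that passed were Foxo1 1416981_at (1.09 ± 0.23, adjusted p = 0.00600), Foxo1 1416982_at (0.96 ± 0.21, adjusted p = 0.00944) and Foxo3 1434831_a_at (0.43 ± 0.11, adjusted p = 0.0330), the last in 13 of the 23 fits that left out 1 array and not for the mean of the Foxo3 probe sets (0.32, adjusted p = 0.0527). That is 4 of 8, beside 3.27% of all tested probe sets. Foxo1 1416983_s_at, which was higher in both experiments, gave a difference of 0.52 ± 0.25 (adjusted p = 0.341). Tissue, housing and experiment differ between flight and calf arrays and cannot be told apart from the treatments.

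**Figure D4:**
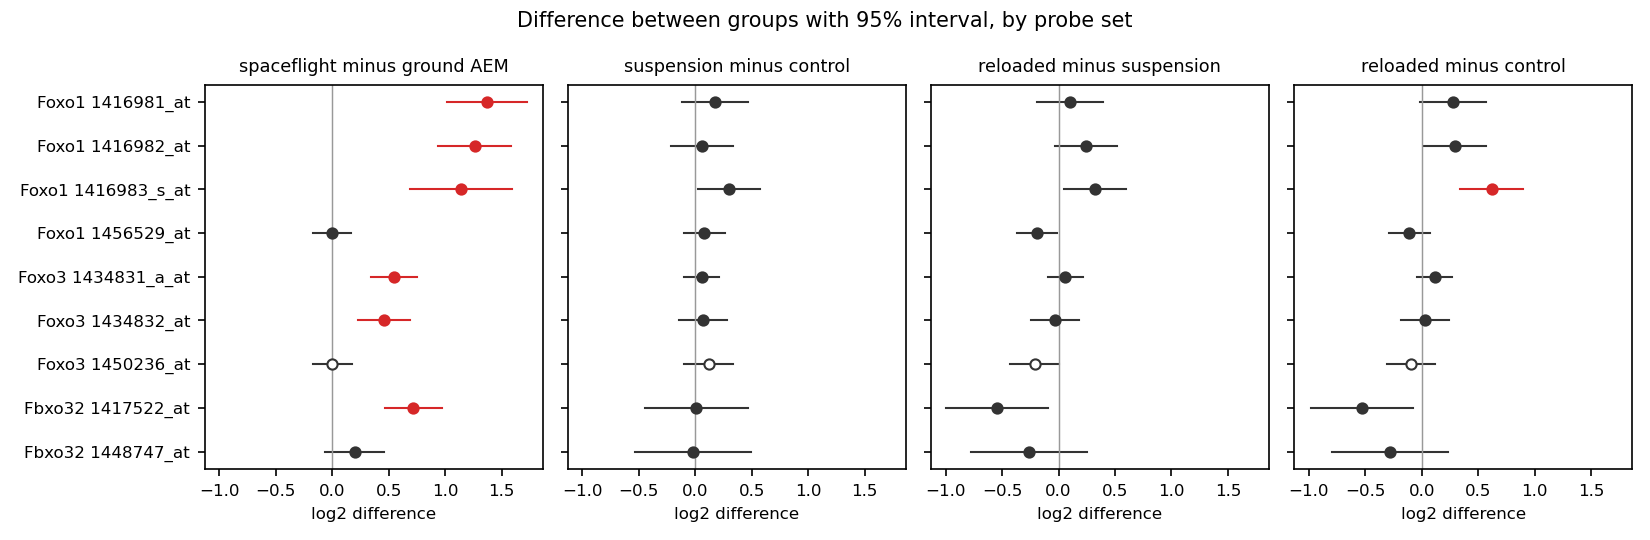
Difference in log2 signal (horizontal axis) with its 95% confidence interval for each of the 9 probe sets in each comparison of groups. Red marks a limma adjusted p under 0.05, and hollow points mark 1450236_at, which was below the filter. The red points are 6 flight differences, between 0.46 and 1.37, and 1 reloaded-minus-control difference at 0.62.

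The probe sets of each gene were compared with each other in 40 exact permutation tests, 10 pairs in 4 comparisons, of which 0 had an adjusted p under 0.05 and 14 an unadjusted p under 0.05. The lowest adjusted p was 0.0794. With 4 against 4 arrays the smallest exact permutation p is 0.0286, so a flight pair could hardly pass after adjustment over 40 tests. The absence of calls therefore does not show that probe sets of one gene gave equal differences. Among the 3 concordant Foxo1 probe sets the flight differences differed by 0.11 (1416981_at and 1416982_at), 0.23 (1416981_at and 1416983_s_at) and 0.12 (1416982_at and 1416983_s_at), with exact permutation p of 0.343, 0.286 and 0.457. Each of them exceeded 1456529_at, by 1.37, 1.26 and 1.14, without overlap (exact permutation p = 0.0286 each, adjusted p = 0.114). In reloaded minus control, the difference of 1416982_at minus that of 1416983_s_at was -0.32, without overlap of the per-array gaps (exact permutation p = 0.00794, the smallest that 5 against 5 allow; adjusted p = 0.0794). Both tested Foxo3 probe sets differed by 0.09 in flight (exact permutation p = 0.371). Within groups, over 23 arrays, the 3 Foxo1 probe sets correlated at 0.69 to 0.85 with each other and at -0.11 to 0.17 with 1456529_at, and the Foxo3 pair at 0.47.

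The position of single arrays within their groups was counted over the 8 tested probe sets, of which 3 read one Foxo1 transcript record. AEM replicate 2 was the highest AEM array in 6 of the 8 tested probe sets, spaceflight replicate 9 the highest spaceflight array in 5 and the lowest in 2, suspension replicate 25 the highest suspension array in 5 and reloaded replicate 33 the lowest reloaded array in 5. Control replicate 2 was the highest control array in 6, reloaded replicate 18 the highest reloaded array in 5 and AEM replicate 1 the lowest AEM array in 5. Each group thus had an array that was highest in 5 or more. Across arrays, with group means removed, 15 relations between Foxo1 (1416981_at), Foxo3 (1434831_a_at) and the Fbxo32 probe sets were computed. The lowest adjusted permutation p was 0.227. Foxo1 and Fbxo32 1417522_at gave r = 0.51 in the 15 calf arrays (permutation p = 0.0430, adjusted p = 0.227; rho = 0.40, permutation p = 0.152), and r = 0.33 without suspension replicates 25 and 11. In the 8 flight arrays the same relation gave r = -0.21 (exact permutation p = 0.665). Foxo1 and Foxo3 gave r = 0.45 over 23 arrays (permutation p = 0.0604; rho = 0.33, permutation p = 0.145) and 0.23 without suspension replicate 25 and AEM replicate 2.

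Upstream of FoxO, the list of regulators in the insulin, Akt, deacetylase and 14-3-3 branches had 24 of its 30 genes tested, each through its highest probe set. After flight 2 were higher and 2 lower, beside 5.51% of all genes called (3.12% higher and 2.39% lower), 20 did not pass, and the list median was 0.03 beside -0.01 over all genes. Pik3r1, a regulatory subunit of phosphatidylinositol 3-kinase, was 0.62 ± 0.13 higher, and Sgk1, a kinase that phosphorylates FoxO proteins, was 0.59 ± 0.14 higher with overlapping groups (limma, adjusted p = 0.0115 and 0.0263). Irs1, the insulin receptor substrate, was lower at -0.70 ± 0.07 and Ywhaq, a 14-3-3 protein, at -0.42 ± 0.08 (adjusted p = 0.000295 and 0.00817). Of the 5 other tested Ywhaq probe sets 1 passed, at -0.50, and 4 did not, at -0.20 to -0.37, and the other tested Pik3r1 probe set gave 0.48 without passing. Akt1 at 0.06, Akt2 at 0.05, Irs2 at 0.17 and Igf1 at -0.07 did not pass. In suspension, reloading and reloaded minus control limma called 0 of 24, with 3, 5 and 0 at an unadjusted p under 0.05, beside 0.339%, 0.547% and 0.307% of all genes called. Of the regulators called after flight, Irs1 gave -0.43 ± 0.13 and Pik3r1 0.33 ± 0.10 in suspension (limma, adjusted p = 0.230 and 0.313). Sgk1 gave -0.18 and Ywhaq 0.01 there. Flight minus suspension was -0.27 for Irs1 and 0.30 for Pik3r1 (adjusted p = 0.525 and 0.485), so a different response of these genes was not shown. Against reloaded minus control the flight difference was lower for Irs1 (-0.72) and for Ywhaq (-0.60) (adjusted p = 0.0130 and 0.0126), beside 2.85% of all genes called in this comparison, and 0 of 24 were called against suspension (3 at an unadjusted p under 0.05). The other FoxO gene on the array, Foxo4, gave 0.02 after flight (adjusted p = 0.919). Its means, 5.97 after flight and 5.95 in AEM, lay near the filter level of 5.83.

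Downstream, 32 of 34 listed FoxO target genes other than Fbxo32 were tested. The list was chosen with earlier results of these data known, so the shares beside its counts describe and do not test. After flight 7 were higher and 1 lower, beside 3.12% of all genes called higher and 2.39% lower, 24 did not pass, and the median was 0.07 beside -0.01 over all genes. The largest increase was that of Cdkn1a, the cell cycle inhibitor p21, at 1.43 ± 0.13, with means of 10.51 after flight and 9.08 in AEM (limma, adjusted p = 0.000167). Sesn1, a stress-induced inhibitor of mTORC1 signalling, rose by 0.77 ± 0.10, Klf15, a transcription factor of amino acid and fuel metabolism, by 0.76 ± 0.11, and Eif4ebp1, a translation repressor, by 0.52 ± 0.08 (adjusted p = 0.000869, 0.00143 and 0.00199). Txnip, an inhibitor of glucose uptake, rose by 0.42 ± 0.08, while Bcl2l11, which promotes cell death, and Ulk1, the autophagy kinase, were the smallest calls at 0.37 and 0.33 (adjusted p = 0.00783, 0.0233 and 0.0421). Ppargc1a, the coactivator PGC-1alpha, fell by 1.23 (SE 0.14, adjusted p = 0.000471).

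Of the 24 targets that did not pass, 9 are given with values, chosen after these were seen. Map1lc3b and Ctsl, an autophagosome protein and a lysosomal protease, gave 0.07 each, Bnip3 0.11, Gabarapl1 -0.27 and Sesn3 -0.31. Pdk4, which limits glucose oxidation, gave 0.10, Gadd45a 0.48 (limma, adjusted p = 0.0995), and the F-box genes Fbxo21 and Fbxo31 gave 0.01 and -0.17. Other probe sets of the called genes gave 1.22 for Cdkn1a and 0.75 for Sesn1 with calls and 0.52 for Sesn1 without, and all 4 other Ppargc1a probe sets were called, from -0.55 to -1.08. The other tested probe sets of 4 called targets did not pass, with 0.31 for Eif4ebp1 (adjusted p = 0.0519), 0.24 for Txnip (0.319), 0.21 and 0.17 for Bcl2l11 (0.173 and 0.464) and 0.15 for Ulk1 (0.481).

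In suspension limma called 0 of the 32 targets (6 at an unadjusted p under 0.05; median 0.02), beside 0.339% of all genes. In reloading 1 was called, Ppargc1a, at 1.29 ± 0.28 with overlapping groups (adjusted p = 0.0352), beside 0.547% of all genes, and in reloaded minus control 0 of 32, with 6 at an unadjusted p under 0.05, beside 0.307%. The flight difference exceeded the suspension difference for Cdkn1a by 1.39, Sesn1 by 0.69 and Klf15 by 0.63 (adjusted p = 0.00112, 0.0161 and 0.0484), beside 1.3% of all genes called. Against reloaded minus control it exceeded for Cdkn1a by 1.50, Klf15 by 0.93 and Sesn1 by 0.78, and Ppargc1a gave -2.48 (adjusted p = 0.000217, 0.00113, 0.00329 and 0.000206), beside 2.85% of all genes called.

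**Figure D5:**
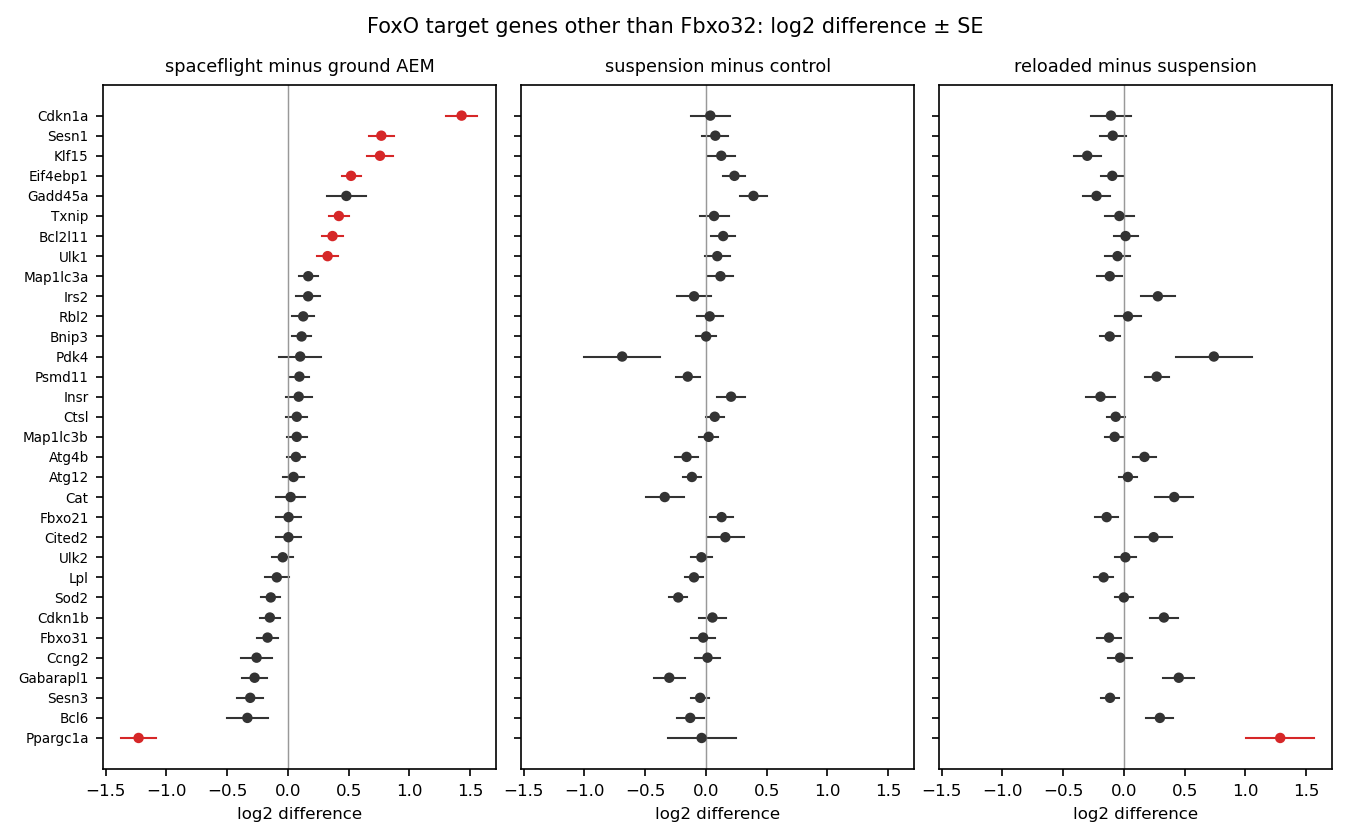
Difference in log2 signal ± SE (horizontal axis) of 32 FoxO target genes, 1 probe set each, in the flight, suspension and reloading comparisons. Red marks a limma adjusted p under 0.05. In the flight panel 7 genes are red above 0, with Cdkn1a at 1.43, and Ppargc1a is red at -1.23; the suspension panel has 0 red points and the reloading panel has 1, Ppargc1a at 1.29.

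Of the partners and substrates of atrogin-1, 6 of 7 listed genes were tested, and limma called 0 of 6 in each of the 4 comparisons of groups, with 2, 0, 1 and 1 at an unadjusted p under 0.05 for flight, suspension, reloading and reloaded minus control; the share of all genes called was 5.51%, 0.339%, 0.547% and 0.307%. After flight the SCF core subunits Skp1 and Cul1 gave -0.04 and 0.00. The substrates Eif3f, a translation initiation factor subunit, Myod1, a myogenic factor, and Ppp3ca, the calcineurin catalytic subunit, gave 0.05, -0.34 and 0.18. Of 9 other muscle ubiquitin ligases tested of 13 listed, 1 was called after flight, beside 5.51% of all genes: Nedd4l, at 0.63 ± 0.09 (adjusted p = 0.00131), and 0 in the calf comparisons, with 0 at an unadjusted p under 0.05 in each. Its flight difference exceeded that of suspension by 0.54 (adjusted p = 0.0497) and that of reloaded minus control by 0.58 (adjusted p = 0.0190). Mul1, a mitochondrial ligase, gave 0.33 and Traf6 0.20 after flight without passing.

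Markers of other cell types moved with some of these comparisons. Of 6 adipocyte markers tested of 8 listed, 5 were higher after flight and 0 lower, beside 3.12% of all genes called higher, among them Adipoq at 1.44 and Cidec at 1.67, and Fabp4 gave 0.27 without passing. The AEM means of Cidec and Lep, 5.05 and 5.55, lay below the filter level of 5.83. The mean log2 signal of the 6 markers was 7.29 to 7.53 in the AEM arrays and 8.18 to 8.57 in the spaceflight arrays, without overlap, so it separated the flight groups as the called Foxo1, Foxo3 and Fbxo32 probe sets did; its part in those results was not tested. In calf muscle the same mean was 7.35 to 7.91 in control, 7.89 to 8.31 in suspension and 7.49 to 8.15 in reloaded arrays. Limma called 0 of the 6 after suspension (4 at an unadjusted p under 0.05), beside 0.339% of all genes. In whole muscle, a change in the number of cells of a type and a change in RNA per cell cannot be told apart.

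The other marker lists are read against 5.51% of all genes called after flight. Endothelial markers (7 tested) had 1 lower, Kdr at -0.32, fibroblast markers (5 tested) had 2 lower, Col1a1 at -0.99 and Col3a1 at -0.61, and the 1 erythroid marker tested, Alas2, was lower at -0.28. By limma 0 of 6 macrophage markers, 0 of 3 Schwann cell markers and 0 of 8 muscle fibre markers were called, with 1, 0 and 1 at an unadjusted p under 0.05. In suspension 0.339% of all genes were called. There 1 of 3 Schwann cell markers was higher, Mbp at 1.87 ± 0.38 (limma, adjusted p = 0.0354). All 3 had an unadjusted p under 0.05, and Pmp22 gave 1.10 without overlap (adjusted p = 0.0699). Of the 5 fibroblast markers 0 were called in suspension, with 2 at an unadjusted p under 0.05. Col1a1 gave -1.13 and Col3a1 -0.58 there (adjusted p = 0.348 and 0.308). For flight minus suspension they gave 0.14 and -0.02 (adjusted p = 0.946 and 0.985), so a different response was not shown. The part of these markers in the values of the members was not tested.

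The genes whose profile was most like each called member were found by the root mean square difference over 23 arrays after each profile was centred on its experiment mean, among 13606 probe sets of single-symbol genes. For Foxo1 1416981_at these were Wbp1l (0.20 and, for a second probe set, 0.24), Mt1 (0.23), Cirbp (0.23) and Pnmt (0.24), beside a median of 0.51 over all. For 1416982_at they were Wbp1l (both probe sets), Sik1, Errfi1 and Phlda1, from 0.19 to 0.23, and for 1416983_s_at Hbegf, Wbp1l (both probe sets), Cirbp and Tiparp, from 0.25 to 0.28. For Foxo3 1434831_a_at they were Rbm39, Aff1, Gna13, Rpap1 and Pxn, from 0.10 to 0.11, and for 1434832_at Tle1, Rlim, Trio, Igf2r and Tmem131, from 0.12 to 0.13. For Fbxo32 1417522_at they were Arntl (0.30), Klf15 (0.31), Fkbp5 (0.32), Pim3 (0.32) and Tob2 (0.33), beside a median of 0.46. The root mean square of the member's own profile, which sets the scale of these values, was 0.43 for this Fbxo32 probe set. It was 0.48, 0.45 and 0.48 for the Foxo1 probe sets in the order above, and 0.19 and 0.20 for those of Foxo3. The root mean square difference takes the size of the flight difference into account, so genes with a like flight difference lead each list.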

How the data were processed

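RNA from whole muscle was hybridised as biotin-labelled cRNA to 1 Affymetrix mouse array a sample, per the labels' protocols. The authors deposited log2 values for 22690 probe sets, of which 64 controls were left out; RMA and MAS5 are named in the submitters' processing notes without versions or roles, and the values' scale was read from their range. Probe sets were named by the platform annotation (20380 with 1 symbol, 691 with several, 1555 unnamed). Each comparison was fitted with limma 3.58.1 (lmFit, eBayes) in R 4.3.3: flight on its 8 arrays, calf comparisons on 15 and differences between them on 23, with Benjamini-Hochberg adjustment over the 14849 tested probe sets and a call at an adjusted p under 0.05. The fits were checked on simulated data. The number of arrays limits the precision. Probe sets of one gene were compared by exact permutation tests, and relations between members by up to 100000 permutations within groups.

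Named genes are every probe set of the 3 members, up to 6 called genes of each list and comparison by size, and the 5 probe sets most like each called member. Bcl2l11, Ulk1 and the genes named as not passing were added after their values were seen. The members and lists were chosen with earlier results of these data known, and the promoter motifs with the sequences in view. Shares of all probe sets or genes beside the counts of members and lists are therefore descriptions and not tests. Promoters are from RefSeq. Alternatives were other filters, gene summaries, normalizations, spread models, thresholds, exchanged flight labels and arrays left out.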

Additional observations from a re-analysis of the deposited data

Results flagged for a closer look

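In 4 of the 45 combinations of probe set and group, 1 array stood apart from the others by Dixon's criterion at its 95% level, which chance meets in about 1 of 20 groups. Foxo1 1416982_at read 8.59 in AEM replicate 2, where the next AEM array read 8.05. Foxo3 1434832_at read 6.78 in suspension replicate 8, where the next read 7.06, and without that array the suspension difference was 0.14. Foxo3 1450236_at, below the filter on all arrays, read 5.08 in reloaded replicate 14, where the next read 4.90. Fbxo32 1417522_at read 9.20 in control replicate 22, where the next read 9.68, and without that array the suspension difference was -0.09 and reloaded minus control was -0.63.

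Effects of flight and of the calf treatments differed by the test of the difference itself in 7 cases. Flight minus suspension was 1.19 for Foxo1 1416981_at, 1.20 for Foxo1 1416982_at and 0.49 for Foxo3 1434831_a_at. Flight minus reloaded-minus-control was 1.09 and 0.96 for the same Foxo1 probe sets, 0.43 for Foxo3 1434831_a_at and 1.25 for Fbxo32 1417522_at.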

How the results depend on the processing

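Over 48 member values and 1286 alternative runs, 1224 stayed on their side of the threshold without a reversal of a called value, 41 lost the call, 5 gained it and 16 reversed. All 16 reversals came with the flight labels exchanged, which turns the sign of the flight difference by construction. Of the 1224, 30 changed sign between values that were not called, and the others kept their direction. The flight calls of Foxo1 1416981_at, 1416982_at and 1416983_s_at, Foxo3 1434831_a_at and Fbxo32 1417522_at were kept without any 1 of the 8 arrays, with differences of 1.28 to 1.55, 1.13 to 1.40, 1.00 to 1.34, 0.49 to 0.61 and 0.63 to 0.80. Some settings test fewer features or use a stricter threshold, which by itself changes a count of calls. Any other cause of the changes below was not tested, and the number of arrays limits all of them.

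The count of probe sets called for flight, 945, was 515 with 1 probe set a gene, 484 with probe sets averaged per gene, 343 at an adjusted p under 0.01 and 626 with the array range as a covariate. For suspension 56 became 34, 17 and 7 under the first 3 of these and 8 with suspension replicates 8 and 9 left out together. For reloading 86 became 53, 46 and 51, and 54 with those replicates left out. For reloaded minus control 50 became 29, 29 and 21, and 134 with array weights, 98 with the array range, 86 with only the 2 groups compared and 92 with those replicates left out. Flight minus suspension, 234, became 116, 139 and 83, and 969 with the flight labels exchanged, and flight minus reloaded-minus-control, 486, became 250, 280 and 186, and 780 with array weights. With single arrays left out these counts ran from 565 to 1007, 14 to 70, 58 to 104, 24 to 68, 166 to 311 and 329 to 583. Settings with 1 value a gene tested fewer features, so their counts are not on the scale of the others. With 1 probe set a gene, 9133 genes were tested in place of 14849 probe sets. The stricter threshold can only lower a count.

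With probe sets averaged per gene, Fbxo32 gained a flight call (0.46), and Foxo3 1434831_a_at lost the calls of flight minus suspension (0.26) and flight minus reloaded-minus-control (0.32). At an adjusted p under 0.01 the calls lost were Foxo3 1434832_at in flight (0.46), Foxo1 1416983_s_at in reloaded minus control (0.62), Foxo3 1434831_a_at in both differences (0.49 and 0.43) and Fbxo32 1417522_at in flight minus reloaded-minus-control (1.25). Foxo3 1434832_at lost its flight call with the array range (0.39). Foxo1 1416983_s_at lost reloaded minus control with no filter, quantile normalization and median centring (0.62 in each).

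With single arrays left out, Foxo3 1434832_at in flight ran from 0.35 to 0.54, Foxo1 1416983_s_at from 0.56 to 0.67 in reloaded minus control, from 0.22 to 0.47 in reloading and from 0.70 to 1.05 in flight minus suspension, and Foxo3 1434831_a_at from 0.44 to 0.55 and from 0.38 to 0.49 in the differences from suspension and from reloaded minus control.

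With the flight labels exchanged, the called flight differences became -1.37, -1.26 and -1.14 for Foxo1, -0.55 and -0.46 for Foxo3 and -0.72 for Fbxo32. Flight minus suspension became -1.55, -1.32 and -1.44 for Foxo1 and -0.60 and -0.52 for Foxo3. Flight minus reloaded-minus-control became -1.65, -1.56 and -1.76 for Foxo1, -0.66 for Foxo3 1434831_a_at and -0.19 for Fbxo32 1417522_at.

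No paired analysis was possible because the groups compared share fewer than 2 replicate numbers.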
